A study of Mus musculus with 24 samples.

Results

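The nuclear genes for the subunits of respiratory complexes II, III, IV and V were followed in 4 tissues, namely liver, inguinal white adipose tissue (iWAT), gastrocnemius muscle (GM) and the hypothalamus, of mice with and without hepatocyte deletion of *Crif1*. Members were taken by gene symbol: *Sdha*, *Sdhb*, *Sdhc*, *Sdhd*, *Cyc1*, and every symbol that begins with Uqcr, Atp5, Cox4, Cox5, Cox6, Cox7 or Cox8. The rule found 48 of the 24532 genes of the table, on 18 chromosomes: 4 of complex II, 9 of complex III, 17 of complex IV, 15 of complex V, and 3 that share the name without being core subunits. Those 3 are *Cox7a2l*, which helps join complexes III and IV into supercomplexes, *Atp5s*, known as coupling factor B, and *Atp5sl*, a factor in the assembly of complex I. *Cox8c* and *Cox7b2* stayed under 1 FPKM in every library, at most 0.0813 and 0.324 FPKM.

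Complex II (succinate dehydrogenase) passes electrons from succinate to ubiquinone, complex III carries them on to cytochrome c, complex IV (cytochrome c oxidase) hands them to oxygen, and complex V (ATP synthase) uses the proton gradient to make ATP. Complex II is encoded wholly in the nucleus, while complexes III, IV and V each combine nuclear subunits with subunits made on mitochondrial ribosomes. CRIF1 (gene symbol *Gadd45gip1*) is a protein of the large mitochondrial ribosomal subunit that is needed to insert newly made mitochondrial proteins into the inner membrane. Several small complex IV subunits exist as pairs, of which *Cox6a2*, *Cox7a1* and *Cox8b* are the forms known from heart and skeletal muscle, and *Cox6a1*, *Cox7a2* and *Cox8a* the widely used forms. *Atp5g1*, *Atp5g2* and *Atp5g3* encode the same mature c subunit of the ATP synthase rotor behind different import sequences.

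Ctrl mice were Crif1flox/flox and LKO mice Alb-Cre;Crif1flox/flox, so both carried the floxed allele and only LKO carried Cre under the albumin promoter, which is active in hepatocytes. All were C57BL/6 mice of 8 weeks on chow, and the genotype is the only treatment. Bulk RNA-seq was made from 3 libraries of each genotype in each tissue, 24 in all, at 4.45 to 8.09 gigabases of aligned sequence (median 5.19). Whether 1 mouse gave several tissues, or each library is a separate animal, is not given in the sources used here, so p-values measure the spread between these libraries. Values are FPKM, that is fragments counted per kilobase of a transcript and scaled to the depth of the library, so levels of different genes can be set side by side per length. The deleted gene in liver was at 14.6, 12.5 and 13.6 FPKM in Ctrl and at 5.4, 2 and 2.51 FPKM in LKO, lower in every LKO library but higher in LKO 1 than in the other two. Reads could be shared where a member overlaps another gene: 1 on the same strand (*Atp5b* with *Mir677*) and 6 on the other (*Uqcrc2*, *Cox4i2*, *Cox6a2*, *Atp5d*, *Atp5f1* and *Atp5j*), and also with the processed pseudogenes that many of these genes have. The marker lists of hepatocytes, adipocytes, skeletal muscle and neurons were each highest in the tissue of that label. Since these are bulk samples, fewer cells of a type and less RNA per cell cannot be told apart.

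The promoters of isoform pairs are shown because the results turn on which form of a pair a tissue held. RefSeq promoters (GRCm38.p6) matched 37 of the 48 genes, 33 with 1 start and 4 with 2. *Atp5a1*, *Cox4i1*, *Cox4i2*, *Cox6a2*, *Cox6c*, *Cox8c*, *Cyc1*, *Sdhc*, *Uqcrb*, *Uqcrc2* and *Uqcrq* had no entry. The 250 bases before the start are printed 5′ to 3′, with matches of the searched motifs in capitals. They lie at chr5:115348959-115349208 on the minus strand for *Cox6a1*, chr7:30183921-30184170 on the plus strand for *Cox7a1*, chr9:79759854-79760103 on the minus strand for *Cox7a2*, chr19:7217617-7217866 on the minus strand for *Cox8a*, chr7:140900447-140900696 on the minus strand for *Cox8b* and chr7:4753095-4753344 on the minus strand for *Cox6b2*.
Cox6a1: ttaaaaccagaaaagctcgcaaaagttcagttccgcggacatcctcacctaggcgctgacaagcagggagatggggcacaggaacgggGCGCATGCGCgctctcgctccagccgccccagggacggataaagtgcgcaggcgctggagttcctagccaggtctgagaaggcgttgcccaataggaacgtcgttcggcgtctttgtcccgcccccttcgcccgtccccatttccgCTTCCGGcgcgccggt
Cox7a1: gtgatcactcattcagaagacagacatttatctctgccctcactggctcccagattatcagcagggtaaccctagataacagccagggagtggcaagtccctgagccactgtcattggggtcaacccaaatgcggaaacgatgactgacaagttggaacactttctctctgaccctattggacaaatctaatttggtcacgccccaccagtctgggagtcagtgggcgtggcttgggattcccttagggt
Cox7a2: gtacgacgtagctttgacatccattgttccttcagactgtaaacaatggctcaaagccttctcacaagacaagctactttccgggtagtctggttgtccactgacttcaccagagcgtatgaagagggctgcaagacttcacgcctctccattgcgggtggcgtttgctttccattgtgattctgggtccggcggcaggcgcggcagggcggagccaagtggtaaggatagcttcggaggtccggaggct
Cox8a: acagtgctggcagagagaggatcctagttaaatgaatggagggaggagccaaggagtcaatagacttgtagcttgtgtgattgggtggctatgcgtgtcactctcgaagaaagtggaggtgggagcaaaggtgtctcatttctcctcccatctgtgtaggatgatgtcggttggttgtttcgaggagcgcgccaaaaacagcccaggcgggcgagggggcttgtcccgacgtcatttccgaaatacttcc
Cox8b: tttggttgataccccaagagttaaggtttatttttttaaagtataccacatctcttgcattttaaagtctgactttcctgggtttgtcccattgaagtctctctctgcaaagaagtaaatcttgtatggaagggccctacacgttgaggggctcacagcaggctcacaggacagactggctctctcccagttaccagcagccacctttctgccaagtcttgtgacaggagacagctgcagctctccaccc
Cox6b2: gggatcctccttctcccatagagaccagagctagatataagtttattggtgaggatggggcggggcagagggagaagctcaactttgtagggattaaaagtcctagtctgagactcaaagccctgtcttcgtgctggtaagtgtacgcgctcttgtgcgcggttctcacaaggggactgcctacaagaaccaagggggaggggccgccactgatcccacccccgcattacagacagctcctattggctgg

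The motifs searched on both strands were the NRF1 motif (the palindrome that forms the longer run of capitals in the *Cox6a1* line), the GABPA motif CCGGAAG, the ERR motif TCAAGGTCA, an A- and T-rich MEF2 motif, the ATF4 motif TGATGNAA and the TATA motif TATAAA. NRF1 and GABPA are transcription factors known for nuclear respiratory genes. The NRF1 letters stood before 3 of the 37 genes (8.11%), *Atp5g2*, *Atp5k* and *Cox6a1*, and in 0.782% of all 32851 promoters. The GABPA letters stood before 9 of 37 (24.3%), among them *Cox6a1*, *Cox6b1*, *Sdhd* and *Uqcrh*, and in 6.91% of all promoters. The ERR letters stood before *Atp5g3* alone (2.7%, against 0.387% of all), the MEF2 and ATF4 letters before none (0.103% and 3.45% of all), and the TATA letters before *Atp5l* and *Cox7b2* (5.41%, against 12.4% of all). *Cox6a1* was the gene with both the NRF1 and the GABPA letters, which are the capitals in its line. The promoters of a pair differed in their count of CG dinucleotides: 1 for *Cox8b* against 11 for *Cox8a*, 4 for *Cox7a1* against 14 for *Cox7a2* and 8 for *Cox6b2* against 14 for *Cox6b1*, but 9 for *Cox7b2* against 5 for *Cox7b*. The median was 14 over the promoters of the members and 6 over all promoters. A match or its absence describes these letters in this window only.

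The first comparison asked where the subunits are expressed without the deletion. In Ctrl mice, GM had the highest transcript levels of most subunits, and the muscle forms outweighed the widely used forms of their pairs there. *Cox6a1* and *Cox8a* were lower in GM than in liver, while *Cox7a2* was at 154 ± 14 FPKM in GM and 138 ± 11.4 FPKM in liver (SD, n = 3 each), a log2 difference of 0.15 (adjusted p = 0.275, limma). Of the 46 members tested across the 12 Ctrl libraries, 41 were higher in GM than in liver and 2 were lower (limma, adjusted p under 0.05), against a background of 41.3% of 15320 genes higher and 30.3% lower. Against iWAT, 38 were higher in GM and 4 lower (17.7% and 58.9% of all genes). Hypothalamus had 6 higher and 38 lower than GM (67% and 18.8% of all genes), and 11 higher and 10 lower than liver (69.8% and 17.9%). Between iWAT and liver, 32 were higher in iWAT and 2 lower (65.9% and 13.9%), and between hypothalamus and iWAT 6 were higher in hypothalamus and 34 lower (50.5% and 30.4%). These comparisons share the Ctrl libraries of a tissue. The median log2 difference of the members was 1.12 for GM minus liver, where that of all genes was 0.10, and -1.27 for hypothalamus minus GM, where that of all genes was 0.86. The F test over the 4 tissues called all 46, and 99% of all genes, with *Cox7a2* the weakest at an adjusted p of 0.0323.

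Members were abundant in every tissue. In Ctrl liver 38 of 48 had a mean of at least 100 FPKM (79.2%, against 6.15% of the genes tested in liver), and the counts were 38 in iWAT, 39 in GM and 35 in hypothalamus. Within a complex the highest and lowest members tested in Ctrl liver (mean ± SD, n = 3) were *Sdha* and *Sdhc* at 190 ± 9.41 and 127 ± 8.99 FPKM, *Uqcrh* and *Uqcrq* at 249 ± 14.1 and 125 ± 31 FPKM, *Cox6a1* and *Cox6b2* at 405 ± 30.3 and 0.364 ± 0.0908 FPKM, and *Atp5b* and *Atp5g1* at 610 ± 37 and 121 ± 11.2 FPKM. *Atp5b*, the catalytic beta subunit of ATP synthase, was at 653, 587 and 591 FPKM in Ctrl liver and at 1626, 1612 and 1601 FPKM in Ctrl GM. *Sdha*, the flavoprotein that oxidizes succinate, was at 200, 188 and 182 FPKM in liver and 337, 324 and 329 FPKM in GM. *Uqcrc2*, a core protein of complex III, was at 140, 122 and 126 FPKM in liver and 276, 276 and 255 FPKM in GM. Each of the 3 genes was higher in every GM library than in every liver library, by 1.40, 0.80 and 1.06 on the log2 scale for *Atp5b*, *Sdha* and *Uqcrc2*. *Cox7a2l* had another order, with a log2 difference of 1.01 for hypothalamus minus liver and 0.57 for hypothalamus minus GM (adjusted p = 1.7e-07 and 3.9e-05, limma).

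**Figure D1:**
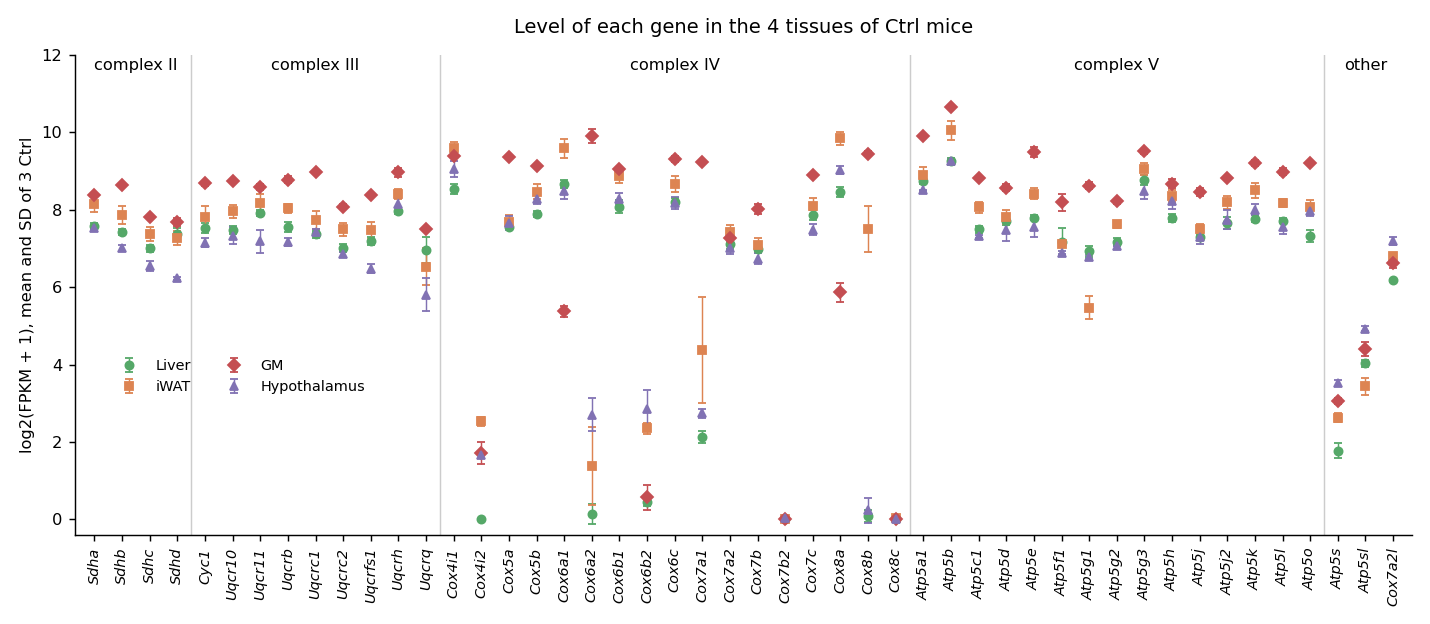
Level of each of the 48 genes in Ctrl mice as log2(FPKM + 1), with the mean and SD of 3 libraries for each of the 4 tissues, grouped by complex. GM (diamonds) lies on top for most genes of complexes II, III and V, while the pairs *Cox6a1* and *Cox6a2*, *Cox7a1* and *Cox7a2*, and *Cox8a* and *Cox8b* change order between tissues.

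In complex IV the muscle form of a pair differed by up to 9.76 on the log2 scale between Ctrl GM and Ctrl liver (*Cox6a2*). *Cox6a2* (mm10 chr7:128205435-128206366) was at 890, 895 and 1101 FPKM in Ctrl GM, and its partner *Cox6a1* at 42.5, 43.4 and 35.9 FPKM. In Ctrl liver *Cox6a1* was at 439, 381 and 395 FPKM and *Cox6a2* at 0, 0.358 and 0 FPKM. Over the 6 libraries of a tissue, *Cox6a2* made 93.6% to 96.8% of the summed Cox6a FPKM in GM, 1.27% to 1.89% in hypothalamus, 0.0707% to 0.722% in iWAT and 0% to 1.58% in liver. *Cox8b* made 90.8% to 93.8% of the Cox8 sum in GM and 12.3% to 28.8% in iWAT, but at most 0.106% in hypothalamus and 0.0532% in liver. *Cox7a1* made 78.5% to 80.7% of the Cox7a sum in GM, 3.92% to 25.7% in iWAT, 4.12% to 5.01% in hypothalamus and 1.41% to 2.56% in liver. The range of *Cox7a1* in iWAT was thus wider than in any other tissue.

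The other pairs were lopsided everywhere. *Cox4i2*, an alternative form of the *Cox4i1* subunit known to respond to oxygen, made at most 0.689% of the Cox4i sum in any library. *Cox6b2*, known from testis, made 1.33% to 2.41% of the Cox6b sum in hypothalamus, its highest share, and 0.0409% to 0.17% in GM. Among the c subunit genes, *Atp5g3* made the largest share in every tissue, from 48.5% in a GM library to 70.2% in an iWAT library. *Atp5g1* made 26.3% to 34.1% in GM, 16.8% to 18.1% in liver, 16.8% to 24% in hypothalamus and 4.58% to 7.63% in iWAT, so that liver and hypothalamus overlapped and iWAT and GM stood apart. Its log2 difference was -1.45 for Ctrl iWAT minus liver and 1.70 for Ctrl GM minus liver (adjusted p = 6.0e-07 and 1.6e-07, limma).

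**Figure D2:**
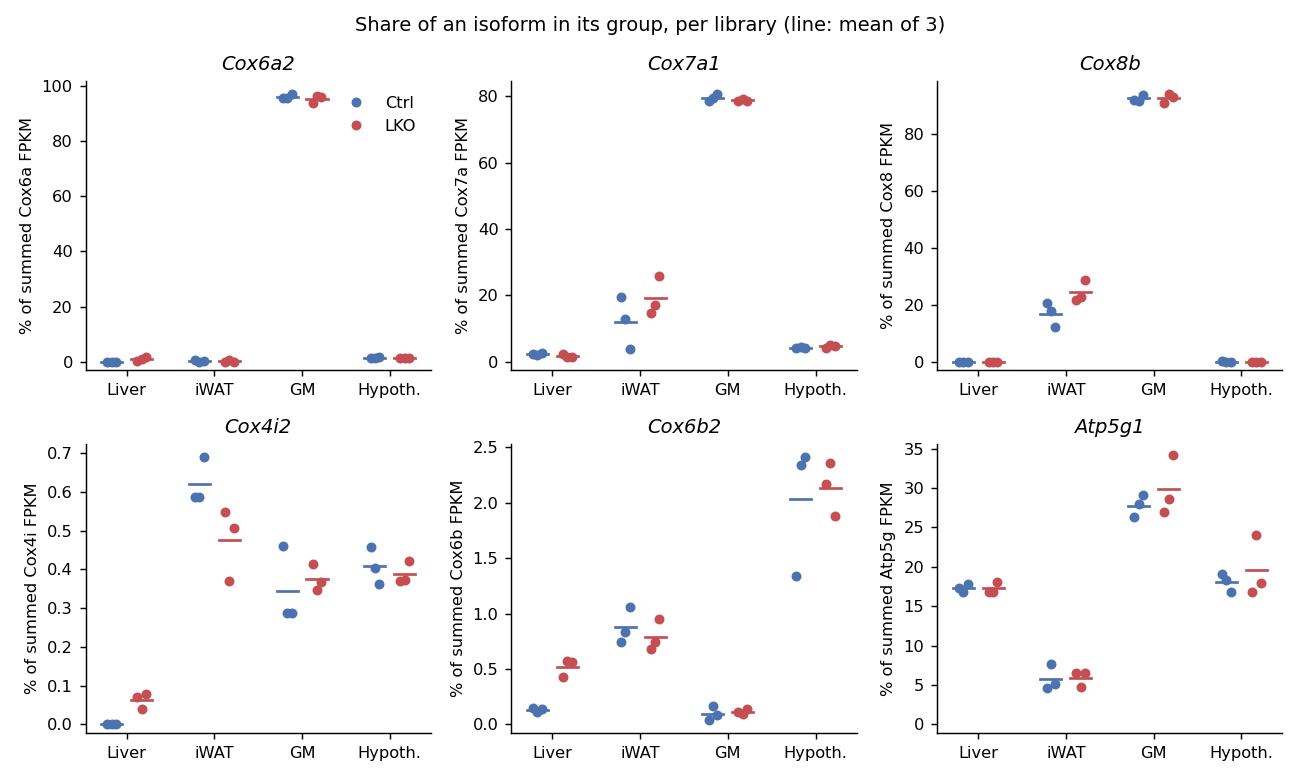
Share of an isoform in the summed FPKM of its group, in percent, for each of the 24 libraries, with Ctrl in blue, LKO in red and a line at the mean of 3. The muscle forms *Cox6a2*, *Cox7a1* and *Cox8b* dominate in GM alone, and the shares of *Cox6b2*, *Cox4i2* and *Cox6a2* in liver are higher in every LKO library than in every Ctrl library.

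In liver, the tissue that lost *Crif1*, the comparison asked whether transcripts of nuclear subunits changed with the deletion. On the deposited scale, 6 of the 43 members tested passed an adjusted p under 0.05 (limma), 5 higher and 1 lower, against a background of 43.8% of 10956 genes (38.3% higher and 5.49% lower). The share called among the members, 14%, was below that background. At an unadjusted p under 0.05 there were 16 (55.9% of all genes). Of the members called, only *Cox6b2* also reached 1.5-fold (27.4% of all genes), and it entered the test only through its LKO libraries, since its Ctrl libraries lay under the filter of 1 FPKM. Log2 differences were above 0 for 40 of 43 members, and 81.5% of all genes were above 0 too. LKO was above Ctrl without overlap in 17 members (53% of all genes) and below it in 1 (8.1%). The members' median was 0.18 and that of all genes 0.33. After median-ratio scaling, which moves the median of all genes to -0.01, 37 of 43 members were below 0 with a median of -0.22, and 5 were called (32.2% of all genes), the same *Cox6b2* higher (17% of all genes were) and *Sdha*, *Sdhd*, *Cox6c* and *Atp5sl* lower (15.2%). Without overlap there were then 2 higher and 19 lower (25.2% and 25.5% of all genes), and 49.5% of all genes were above 0. The deposited TPM called 20 members (46.5%), all higher, and 59.3% of all genes, whose median was 0.47. Quantile normalization called 7 members (16.3%) and 30.1% of all genes.

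*Cox7a2*, the widely used form of its pair, was at 150, 128 and 135 FPKM in Ctrl liver and 192, 201 and 202 FPKM in LKO liver. The groups did not overlap, and it rose by 0.53 on the log2 scale (SE 0.105, adjusted p = 0.00949, limma). *Atp5b* was at 653, 587 and 591 FPKM in Ctrl and 743, 901 and 1008 FPKM in LKO, a rise of 0.53 (SE 0.148, adjusted p = 0.0278). *Cox4i1*, a nuclear subunit of complex IV, was at 411, 359 and 348 FPKM in Ctrl and 429, 543 and 576 FPKM in LKO, a rise of 0.46 (adjusted p = 0.0412). *Atp5o*, which joins the peripheral stalk of ATP synthase to its catalytic head and was named here because it was called, rose by 0.39 (adjusted p = 0.0398). After scaling these 4 were at 0.13, 0.13, 0.06 and -0.01, with adjusted p from 0.408 to 0.953. With quantile normalization they were at 0.48, 0.91, 0.45 and 0.34 and all passed. The calls of *Atp5b*, *Cox4i1* and *Atp5o* were lost with the replicate block (adjusted p = 0.0565, 0.0819 and 0.0833) and without any one library other than LKO 1 (0.0536 to 0.144), that of *Cox4i1* also with no filter (0.0616), and that of *Cox7a2* without Ctrl 2, Ctrl 3 or LKO 2 (0.0517 to 0.0547). In all 4 the LKO 1 library was the lowest of the LKO libraries, and LKO 1 also kept the most *Crif1* transcript, whose part in this was not tested. Without LKO 1 the count of called members was 19 (45.2% of those tested, with 67.4% of all genes called), without LKO 2 it was 0 (13.5% of all genes), and without any one of the other 4 libraries it was 1 or 2 (17.3% to 26.5% of all genes). Leaving out any LKO library also took *Cox6b2* out of the test, since the filter asks for 3 libraries, and left 42 members.

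Complex II had the lowest median of the 4 complexes on both scales. *Sdha* was at 187, 198 and 209 FPKM in LKO liver, overlapping the Ctrl values given above. Log2 differences were 0.06 for *Sdha*, 0.12 for *Sdhb* (the iron-sulfur subunit), and 0.04 and -0.06 for the membrane anchors *Sdhc* and *Sdhd*, with adjusted p from 0.476 to 0.722. After scaling all 4 were lower in every LKO than in every Ctrl library (25.5% of all genes were), with log2 differences of -0.34, -0.28, -0.35 and -0.46, and *Sdha* (adjusted p = 0.0448) and *Sdhd* (0.0371) passed (15.2% of all genes were called lower). The medians by complex were 0.05 for II, 0.19 for III, 0.25 for IV and 0.17 for V on the deposited scale, and -0.34, -0.20, -0.15 and -0.23 after scaling. In complex III, *Uqcrc2* was at 145, 171 and 182 FPKM in LKO, a difference of 0.35 (adjusted p = 0.0524), and 0 of 9 members passed. *Uqcrc2* passed with TPM (adjusted p = 0.0166), without LKO 1 (0.00575) and in the 24-library fit (0.00242), and was at -0.043 after scaling. *Uqcrq*, a small complex III subunit, was at 161, 110 and 105 FPKM in Ctrl and 109, 143 and 101 FPKM in LKO, so both groups spread over the same range. In complex IV 3 of 12 tested passed and in complex V 2 of 15, all under the 43.8% of all genes.

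Among the 3 genes that are not core subunits, *Atp5sl* was at 15.5, 14.4 and 16.2 FPKM in Ctrl and 12.2, 10.3 and 13.1 FPKM in LKO liver. It was the only member called lower on the deposited scale, by 0.35 (SE 0.121, adjusted p = 0.0489), and it fell by 0.72 after scaling (adjusted p = 0.00781). On the deposited scale the call was lost with no filter (adjusted p = 0.0574), with TPM (-0.25, 0.121), with the replicate block (0.0745), and without Ctrl 1, Ctrl 2, Ctrl 3 or LKO 2 (0.0978 to 0.183). *Sdhd* and *Uqcrq* were also below 0 and not called. *Atp5s* was at 2.88, 1.99 and 2.48 FPKM in Ctrl and 2.8, 4.05 and 5.48 FPKM in LKO (log2 difference 0.54, adjusted p = 0.0671). *Cox7a2l* was at 72, 69.5 and 73.2 FPKM in Ctrl and 70.5, 104 and 128 FPKM in LKO (0.45, adjusted p = 0.107). For *Atp5s* and *Cox7a2l* LKO 1 lay within the Ctrl range, and LKO 2 and LKO 3 above. Both passed without LKO 1 (0.74 and 0.68, adjusted p = 0.00357 and 0.00118), with TPM (adjusted p = 0.0335 and 0.0463) and in the 24-library fit (0.00444 and 0.0179), and without LKO 3 they were at 0.35 and 0.26.

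**Figure D3:**
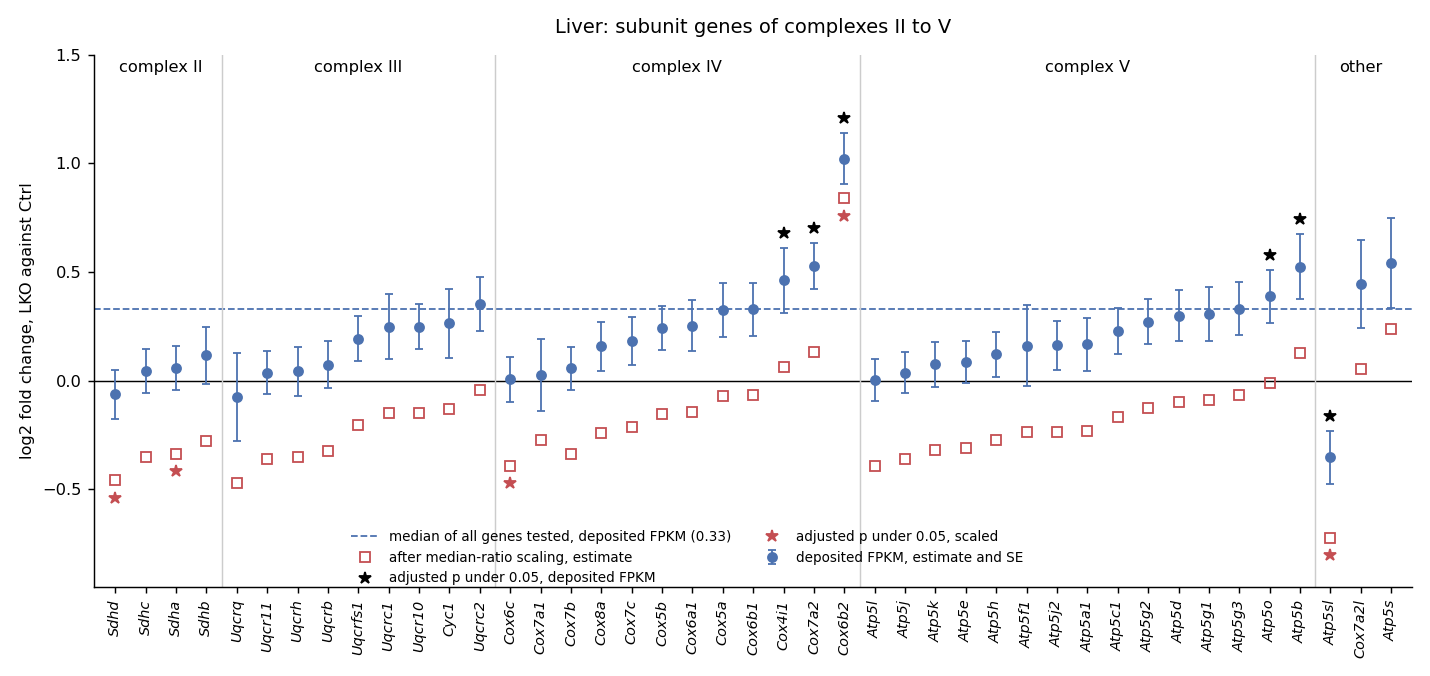
Log2 fold change of LKO against Ctrl in liver for the 43 members tested, by complex, on the deposited scale (filled circles with SE) and after median-ratio scaling (open squares), with stars at an adjusted p under 0.05. Most circles lie between 0 and the median of all genes (dashed line, 0.33), and most squares lie below 0.

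Of the complex IV isoforms that were low in Ctrl liver, *Cox6b2*, *Cox6a2* and *Cox4i2* were higher in every LKO library, and *Cox7a1*, *Cox8b* and *Cox7b2* overlapped. The 53% of all genes that were higher without overlap are of genes past the filter, which *Cox6a2* and *Cox4i2* missed. *Cox6b2* (mm10 chr7:4751792-4753094) was at 0.444, 0.265 and 0.381 FPKM in Ctrl and 1.44, 1.93 and 1.96 FPKM in LKO. The groups did not overlap, and it rose by 1.02 on the log2(FPKM + 1) scale (SE 0.117, adjusted p = 0.00162, limma), which understates the change of so low a gene. The value was 0.84 after scaling, 0.54 with quantile normalization and 2.02 with a pseudocount of 0.1, and it passed in every alternative that tested it. It passed the filter of 1 FPKM only through the LKO libraries. With no filter the adjusted p was 0.00438. The mean coverage of its transcript was 1.11 to 2.99 reads per base in Ctrl and 6.84 to 8.36 in LKO. Its share of the Cox6b sum went from 0.133% ± 0.0194 (SD, n = 3) to 0.521% ± 0.0784, and *Cox6b1* made the rest. *Cox6b1* itself was at 305, 240 and 266 FPKM in Ctrl and 332, 336 and 348 FPKM in LKO (0.33, adjusted p = 0.0611). It passed with TPM (adjusted p = 0.0169), without LKO 1 (0.0381) and in the 24-library fit (0.0102), and was at -0.068 after scaling.

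*Cox6a2*, the muscle form, was at 0, 0.358 and 0 FPKM in Ctrl liver and 0.624, 4.8 and 8.33 FPKM in LKO liver, with coverage of at most 1.99 reads per base in Ctrl and of 3.45, 23.7 and 39.1 in LKO. Every LKO library was above every Ctrl library, and the 3 LKO libraries differed widely. It missed the filter. With no filter its log2 difference was 2.01 with an adjusted p of 0.0562, and in the fit of all 24 libraries the adjusted p was 0.00586. That fit takes 1 residual variance per gene over the 4 tissues, so its p-value does not measure the spread of the liver libraries alone. *Itgad*, a gene that overlaps it on the other strand, was at most 0.0184 FPKM in the liver libraries. The 8 skeletal muscle markers summed to 6.71 to 17.4 FPKM in Ctrl liver and 17.7 to 24.6 FPKM in LKO liver, with all 8 above 0 in every library and 4 higher in every LKO than in every Ctrl library. Of all genes past the filter in liver, 53% were higher in every LKO library. *Cox6a2* equalled 2.94% to 3.92% of *Acta1* (muscle actin) in the GM libraries, 11.2% of it in the 1 Ctrl liver library where it was above 0, and 18.8%, 99.3% and 159% of it in the LKO liver libraries. Against *Ckm* (muscle creatine kinase) the values were 3.96% to 4.99% in GM, 15.2% in that Ctrl liver library and 25.7%, 122% and 213% in LKO liver. In iWAT *Cox6a2* equalled 1.78% to 5.61% of *Acta1* and 3.51% to 9.46% of *Ckm*, ranges wider than those of GM, at 4.78, 0.688 and 0.779 FPKM in Ctrl and 0.87, 6.25 and 0.61 FPKM in LKO. The 2 iWAT libraries with the most *Cox6a2*, Ctrl 1 and LKO 2, were those with the most muscle marker FPKM (682 and 1069, against 45.7 to 115 in the other 4).

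*Cox4i2* was listed at 0 in the 3 Ctrl liver libraries and at 0.301, 0.212 and 0.456 FPKM in LKO, all under the filter. In the fits that tested it, with no filter and over all 24 libraries, its log2 difference was 0.40 with adjusted p from 0.00924 to 0.0112. *Bcl2l1*, which overlaps *Cox4i2* on the other strand, was at 13, 14.1 and 14.6 FPKM in Ctrl liver and 19.1, 26 and 31.4 FPKM in LKO, and the library kit does not mark strand, so reads in the bases that both genes share cannot be assigned to one of them. The other muscle forms did not follow *Cox6a2*. *Cox7a1* was at 3.72, 2.85 and 3.54 FPKM in Ctrl and 4.5, 3.06 and 2.9 FPKM in LKO, and *Cox8b* at 0.206, 0 and 0 FPKM in Ctrl and 0 in every LKO library. Shares of 9 isoforms were compared in 4 tissues, 36 comparisons in all. Ctrl and LKO did not overlap in 6, of which 4 were in liver (*Cox4i2*, *Cox6a2*, *Cox6b2* and *Atp5g3*, the last from 62.1% to 62.8%). Each of the 6 has a p of 0.1 in the exact two-sided permutation test, the lowest that 3 against 3 allows, and the smallest adjusted value was 0.6. The 36 comparisons are not independent, since the Atp5g shares of a library add up to the whole. Several also rest on values at or near 0.

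**Figure D4:**
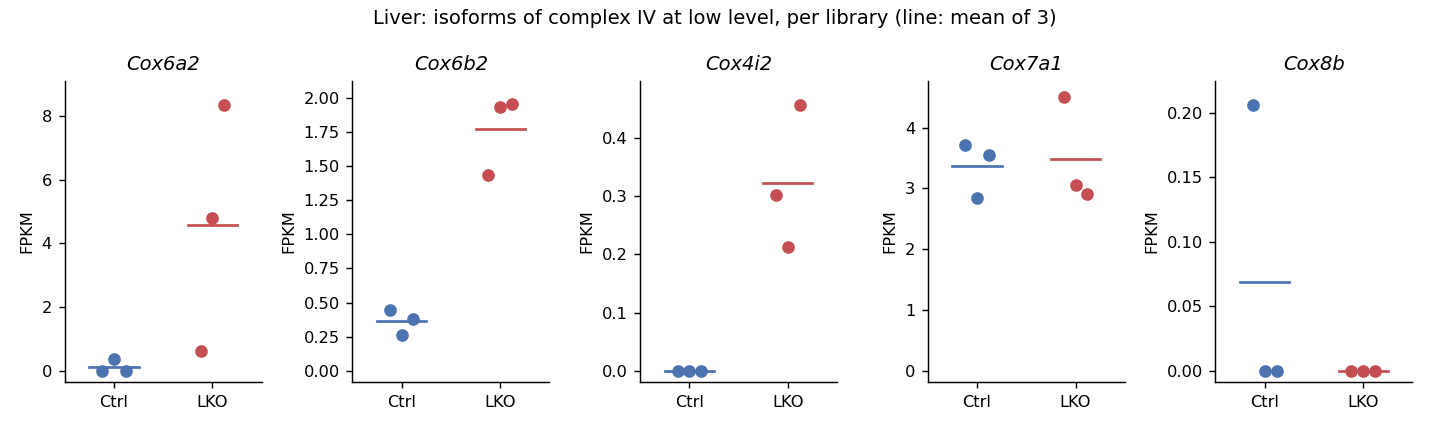
FPKM of complex IV isoforms that are low in liver, for each of 3 Ctrl and 3 LKO libraries, with a line at the mean. *Cox6a2*, *Cox6b2* and *Cox4i2* are higher in every LKO library than in every Ctrl library, while *Cox7a1* and *Cox8b* overlap.

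Markers of other cells differed in the same liver libraries. The 7 leukocyte markers summed to 67.9 to 73.7 FPKM in Ctrl and 177 to 257 FPKM in LKO, with 6 of 7 higher in every LKO library (53% of all genes past the filter were). The 6 hepatocyte markers summed to 55950 to 58710 FPKM in Ctrl and 42220 to 67740 FPKM in LKO, with 2 of 6 lower in every LKO library (8.1% of all genes were). A list of 5 mammary epithelium markers summed in liver to 192 to 284 FPKM in Ctrl and 669 to 783 FPKM in LKO. Of these, *Krt8*, *Krt18* and *Epcam* (3 of 5, against 53% of all genes) were higher in every LKO library, and *Csn2* and *Krt14* were at 0 in all 6. *Krt8* and *Krt18* are keratins that hepatocytes also express. The part of these markers in the subunit values was not tested. The median SD of a member between replicates, on the deposited log2 scale, was 0.10 in Ctrl liver and 0.080 in LKO liver. For all genes tested it was 0.093 and 0.210. The median-ratio scaling factors were 0.892, 0.863 and 0.865 in the Ctrl libraries and 1.003, 1.165 and 1.307 in the LKO libraries. The SD of all genes in LKO liver thus includes this shift of scale between libraries, and the SD after scaling was not computed.

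Assembly and regulatory factors of the same complexes, most of which help to build the complexes without being part of them, were also followed in liver. Of 40 names listed, 2 were older names of listed genes, and of the 38 genes 36 were tested in liver. On the deposited scale 10 rose and 1 fell, both smaller shares than among all genes (38.3% and 5.49%). After scaling 2 were higher and 7 lower (17% and 15.2% of all genes). *Cox19*, a copper-binding factor of complex IV, rose from 25.1 ± 1.52 to 55.5 ± 12.9 FPKM (SD, n = 3 each), a log2 difference of 1.09 (adjusted p = 0.00495, limma), and *Atpif1*, the inhibitor of the ATP synthase, from 6.82 ± 1.39 to 12.7 ± 1.62 FPKM (0.82, adjusted p = 0.00995). Both stayed above 0 after scaling, at 0.70 and 0.46 (adjusted p = 0.0063 and 0.0461). *Cox17*, the copper chaperone that feeds complex IV, rose by 0.65 (adjusted p = 0.0153) and was at 0.26 after scaling (0.0945). *Sco2*, another copper chaperone of complex IV, fell from 33.1 ± 6.02 to 16.5 ± 3.2 FPKM, by 0.96 (adjusted p = 0.00839), and was at -1.35 after scaling (0.00301). *Taco1*, an activator of mitochondrial translation for complex IV, and *Sdhaf1*, a complex II factor, were at -0.21 and -0.15 and did not pass on the deposited scale, but both fell after scaling, by 0.58 and 0.52 (adjusted p = 0.00384 and 0.0211). Of 4 related genes outside the symbol rule, *Cycs* (cytochrome c) rose by 0.48 (adjusted p = 0.0191) and was at 0.09 after scaling. None of the 37 factors tested in each of iWAT, GM and hypothalamus was called.

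In iWAT, where the *Crif1* mean was 13.6 FPKM in Ctrl and 11.4 FPKM in LKO with overlapping groups, none of 45 members was called (limma, 1 with an unadjusted p under 0.05), as none of 12288 genes was (0%, with 15% at an unadjusted p under 0.05). Log2 differences were above 0 for 39 of 45 members, against 47.6% of all genes, with a median of 0.14 where that of all genes was -0.01. The largest was *Cox7a1*, at 48, 23 and 6.47 FPKM in Ctrl and 34.3, 40.9 and 66.6 FPKM in LKO (log2 difference 1.17, SE 0.653, adjusted p = 0.449). Without Ctrl 3 the difference was 0.44, and without Ctrl 1 it was 1.79. Its Ctrl libraries spread from the lowest to the second highest of the 6 values, so that the groups overlapped. *Cox8b* was at 272, 183 and 119 FPKM in Ctrl and 273, 295 and 410 FPKM in LKO, with a log2 difference of 0.82 (SE 0.307, adjusted p = 0.281) that was 0.52 without Ctrl 3. It was the 1 member above Ctrl without overlap (9.76% of all genes were), with its highest Ctrl library just under its lowest LKO library. Its share of the Cox8 sum was 16.8% ± 4.22 in Ctrl and 24.4% ± 3.8 in LKO (SD, n = 3 each). *Cox7b*, a small complex IV subunit, came next at 0.24, and the 3 lowest were *Cox4i2* at -0.26, *Atp5g3* at -0.12 and *Cox7a2l* at -0.03. Without LKO 2 *Cox4i2* was at -0.14, and *Atp5g3* was at -0.046 without Ctrl 1 and -0.20 without Ctrl 2. All of these missed the adjusted threshold.

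The Ctrl libraries of iWAT did not lie together. The geometric mean of the 9 complex III genes in iWAT was 253, 192 and 196 FPKM in Ctrl and 239, 241 and 234 FPKM in LKO, and that of the 15 complex V genes was 298, 261 and 254 FPKM in Ctrl and 282, 284 and 288 FPKM in LKO. Ctrl 1 lay above all LKO libraries, and Ctrl 2 and Ctrl 3 below them. The order was the same for complex II (236, 188 and 183 FPKM against 221, 213 and 221 FPKM), and in complex IV Ctrl 1 lay between LKO 2 and LKO 3. Without Ctrl 1, left out because it stood apart, 34 of 45 members were higher in every LKO library than in both remaining Ctrl libraries (15.5% of all genes). The median was then 0.26, and still none was called. Without Ctrl 2 or Ctrl 3, 2.22% of members were higher without overlap, and without 1 LKO library 4.44% to 8.89%. Lower without overlap were 4.44% without Ctrl 2 and 2.22% without LKO 3. The share of all genes was computed for Ctrl 1 only. *Ucp1*, the uncoupling protein of brown and beige fat, was at 81.6, 31.4 and 4.5 FPKM in Ctrl and 106, 41.1 and 211 FPKM in LKO. The 6 brown or beige adipocyte markers summed to 252, 140 and 49.1 FPKM in Ctrl and 367, 170 and 382 FPKM in LKO, and 1 of the 6 was higher in every LKO library (9.76% of all genes were). Ctrl 3 was lowest and LKO 3 highest for *Ucp1*, *Cox7a1*, *Cox8b* and the sum, but not for every marker: *Cidea* was highest in LKO 1 (236 FPKM, against 139 FPKM in LKO 3), and *Ppargc1a* was highest in Ctrl 1 (3.19 FPKM) and lowest in LKO 1 (1.92 FPKM). The 7 leukocyte markers summed to 634, 1668 and 1031 FPKM in Ctrl and 640 to 848 FPKM in LKO, with Ctrl 1 again near the LKO libraries. The part of these cell markers in the subunit values was not tested.

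**Figure D5:**
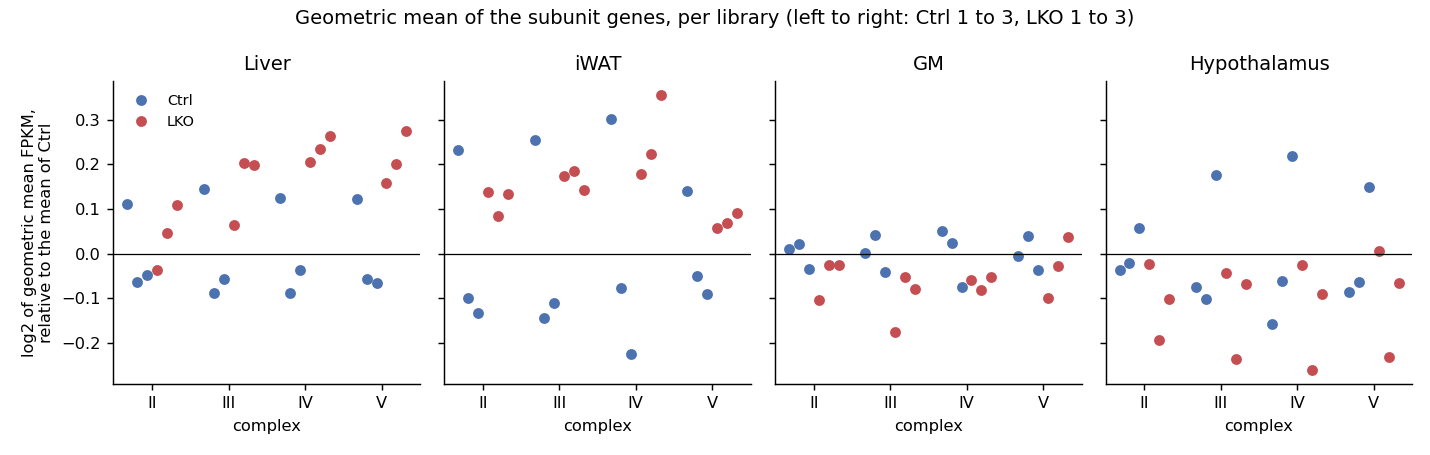
Geometric mean FPKM of the subunit genes of each complex in each library, as log2 relative to the mean of the 3 Ctrl libraries of the tissue, for genes at 1 FPKM or more in all 6 libraries. In iWAT the first Ctrl library stands apart from the other two for every complex, and in hypothalamus the third Ctrl library is highest and the second LKO library lowest.

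In GM none of 45 members was called (limma, 1 with an unadjusted p under 0.05), as none of 10877 genes was (0%, with 6.83% at an unadjusted p under 0.05). Log2 differences were below 0 for 39 of 45, with a median of -0.05 where that of all genes was -0.03, and 40% of all genes were above 0. In 7 members every LKO library was below every Ctrl library (7.2% of all genes), namely *Uqcrq*, *Uqcr10*, *Uqcrfs1*, *Sdhc*, *Cox5b*, *Cox7a1* and *Atp5g2*. After scaling no member was without overlap (14% of all genes). *Uqcrq* was at 177, 186 and 177 FPKM in Ctrl and 112, 172 and 122 FPKM in LKO, with a log2 difference of -0.43 (SE 0.147, adjusted p = 0.64). *Cox6a2* was at 800, 920 and 855 FPKM in LKO against the 890, 895 and 1101 FPKM of Ctrl given above (-0.16, adjusted p = 0.837), and the groups overlapped. Without Ctrl 3 the difference was -0.059. *Atp5g2* was at -0.13, and the highest members were *Atp5f1* at 0.11, *Atp5g1* at 0.08 and *Cox4i2* at 0.08. The shares of *Cox6a2*, *Cox7a1* and *Cox8b* overlapped between genotypes, with differences of the means under 1 percentage point over all 6 libraries.

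In hypothalamus none of 45 members was called (limma, 0 with an unadjusted p under 0.05), against 0.0217% of 13828 genes called and 3.72% at an unadjusted p under 0.05. Log2 differences were below 0 for 42 of 45 members, where 47.4% of all genes were above 0, with a median of -0.10 against -0.01 for all genes. In 3 members every LKO library was below every Ctrl library (4.97% of all genes), *Sdhd*, *Uqcrc2* and *Cox4i2*. *Atp5e*, the epsilon subunit of ATP synthase, was at 171, 166 and 232 FPKM in Ctrl and 186, 131 and 157 FPKM in LKO (-0.26, adjusted p = 0.999). *Uqcrq* was at -0.23 and *Uqcrh*, the hinge protein of complex III, at -0.21, and the highest were *Atp5g1* at 0.04, *Atp5g2* at 0.01 and *Atp5s* at 0.01. Without Ctrl 3 *Atp5e* was at -0.11, *Uqcrh* at -0.12 and *Uqcrq* at -0.022, without LKO 2 *Atp5e* was at -0.13 and *Uqcrh* at -0.11, and *Uqcrq* reached -0.45 without Ctrl 2 and -0.14 without LKO 1. The geometric mean of the complex IV genes was 72.9, 77.9 and 94.6 FPKM in Ctrl and 79.9, 67.9 and 76.3 FPKM in LKO, with Ctrl 3 highest and LKO 2 lowest. Without Ctrl 3 the median was -0.03 with 14 members above 0, and without LKO 2 it was -0.04 with 7 above 0. The red blood cell markers summed to 453, 331 and 952 FPKM in Ctrl, highest in Ctrl 3, and to 460, 228 and 262 FPKM in LKO, lowest in LKO 2, and their part in the subunit values was not tested.

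The difference between tissues was tested directly in a fit of the 24 libraries. The effect of LKO differed between tissues for 9 of 46 members (adjusted p under 0.05, F test over the interaction in limma), against 33.5% of 15849 genes. After scaling 4 of 46 passed (22.4% of all genes). *Cox6b2* and *Cox4i2* passed on both scales, with adjusted p of 0.00973 and 0.0175 on the deposited scale and 0.0395 and 0.024 after scaling, and *Sdha* (0.0422) and *Atp5sl* (0.00417) passed after scaling. On the deposited scale *Cox7a2* had the lowest adjusted p, 0.00749, with a log2 difference of 0.53 in liver and of 0.21, -0.04 and -0.15 in iWAT, GM and hypothalamus. Liver was the highest of the 4 tissues for *Cox7a2*.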

How the data were processed

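Total RNA of 24 mouse samples was sequenced on a HiSeq4000 as 100-nt paired reads from TruSeq libraries, which do not mark strand. The authors aligned the reads to mm10 and deposited a joined table of FPKM per gene, and per library the FPKM, the TPM and the mean read coverage of each gene in the layout of StringTie. The submitters' processing notes name HISAT2 2.0.5, Bowtie2 2.2.6, STAR 2.5.2b and StringTie 1.3.3b without saying which made the table. No counts were used here.

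Within each tissue, genes that reached 1 FPKM in 3 or more of the 6 libraries were fitted on log2(FPKM + 1) with limma 3.58.1 in R 4.3.3, and p-values were adjusted over all genes tested (Benjamini-Hochberg, threshold 0.05, any fold). Every adjusted p given is from limma except that of the isoform shares. The 24-library fit tested the interaction of genotype and tissue, and the 12 Ctrl libraries were compared between tissues. Both fits took the libraries as independent and 1 residual variance per gene over the tissues. Median-ratio scaling divided each library by the median ratio of its genes to their geometric mean, within a tissue. Isoform shares were percentages of summed FPKM, compared by exact permutation tests. Named were the isoform groups, complex II, *Uqcrc2*, *Cox4i1*, the 3 highest and 3 lowest log2 differences per tissue, called members with a 1.5-fold change, the highest and lowest gene per complex in Ctrl liver, the 3 lowest in liver after scaling, non-subunits, members under 1 FPKM, and the 3 assembly factors at either extreme in liver. Other genes named were chosen after their values were seen. The members and lists were chosen with earlier results of these data known. The fits were tested on simulated data. Alternatives were another pseudocount (0.1), no filter, a mean of at least 5 FPKM, TPM, scaling, quantile normalization, a replicate block and leaving out each library.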

Additional observations from a re-analysis of the deposited data

Results flagged for a closer look

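The effect of LKO differed between the 4 tissues for 9 of 46 members (19.6%), by the interaction term of genotype and tissue in limma over 24 libraries. This was below the 33.5% of 15849 genes that passed the same test. Log2 differences of LKO from Ctrl are given in the order liver, iWAT, GM and hypothalamus. *Cox7a2* was at 0.53, 0.21, -0.04 and -0.15 (interaction adjusted p = 0.00749). *Atp5b* was at 0.53, 0.21, -0.03 and -0.10 (adjusted p = 0.0157), and *Cox4i1* at 0.46, 0.08, -0.04 and -0.21 (adjusted p = 0.029). *Atp5o* was at 0.39, 0.16, 0.03 and -0.12 (adjusted p = 0.0408).

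*Uqcrc2* was at 0.35, 0.12, -0.04 and -0.07 (adjusted p = 0.036), *Cox6b1* at 0.33, 0.20, -0.06 and -0.16 (adjusted p = 0.0315), and *Atp5g2*, which encodes the c subunit, at 0.27, 0.01, -0.13 and 0.01 (adjusted p = 0.0271). For these 7 genes liver was highest. None of the 7 passed after median-ratio scaling.

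*Cox6b2* passed on both scales (adjusted p = 0.00973), at 1.02 in liver, 0.04 in iWAT and -0.05 in hypothalamus, and it was under the filter in GM. *Cox4i2* also passed on both (adjusted p = 0.0175), listed at 0 in every Ctrl liver library and at -0.26, 0.08 and -0.18 in iWAT, GM and hypothalamus. Its strand-blind overlap with *Bcl2l1* is given above.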

How the results depend on the processing

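Members called in liver numbered 6 as reported, 20 from deposited TPM (59.3% of all genes), 18 in the 24-library fit (47.6%) and 1 with a fold of at least 1.5 (27.4%), and from 0 without LKO 2 (13.5%) to 19 without LKO 1 (67.4%). In iWAT 1 member (*Cox8b*) was called in the 24-library fit (4.14% of all genes). Members whose effect differed between tissues numbered 9 as reported (33.5% of all genes), 20 from TPM (40.7%), 4 after median-ratio scaling (22.4%), and 2 without liver LKO 3 (22.2%) to 19 without iWAT Ctrl 1 (35.4%). No member was called in GM or hypothalamus under any alternative run.

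Pairing correlations of same-numbered Ctrl and LKO libraries were 0.03 to 0.15 in liver, -0.12 to 0.30 in iWAT, 0.05 to 0.35 in GM and -0.13 to 0.14 in hypothalamus. They are not correlations of levels, which were at 0.9825 or more (Pearson) between libraries of a group. Numbers 1 and 2 in liver, 1 and 3 in iWAT, 1 and 2 in GM and 2 in hypothalamus correlated best with their own number, and the others did not. The labels do not say that a number marks a pair, so the numbers were not taken as pairs. The replicate block left 2 members called in liver (35.7% of all genes) and 3 in the interaction (31.6%).

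Median-ratio scaling changed the sign of the liver log2 difference in 34 of the 43 members tested. Of the genes named for liver, it turned these below 0: *Atp5g1* -0.0874, *Atp5g2* -0.125, *Atp5g3* -0.0666, *Atp5o* -0.0090, *Cox6a1* -0.14, *Cox6b1* -0.0678, *Cox6c* -0.39, *Cox7a1* -0.27, *Cox7b* -0.34, *Cox8a* -0.24, *Sdha* -0.34, *Sdhb* -0.28, *Sdhc* -0.35, *Uqcrc2* -0.0431 and *Uqcrh* -0.35. With quantile normalization 25.6% of the members tested in liver were below 0, against 6.98% on the deposited scale. Of the named genes, quantile normalization turned *Cox7a1* to -0.38, *Sdha* to -0.0192, *Uqcrh* to -0.0793 and *Cox6c* to -0.10, and TPM turned *Sdhd* to 0.0614 and *Uqcrq* to 0.0475. Leaving out 1 library turned the sign of small differences. In liver the ranges were -0.0299 to 0.0522 for *Cox6c*, -0.13 to 0.12 for *Cox7a1*, -0.00125 to 0.10 for *Sdhc*, -0.12 to 0.0261 for *Sdhd*, -0.0157 to 0.11 for *Uqcrh* and -0.22 to 0.12 for *Uqcrq*, and, with no change of sign, 0.0206 to 0.10 for *Sdha*, 0.0016 to 0.21 for *Sdhb* and 0.0215 to 0.11 for *Cox7b*. They were -0.13 to 0.10 for *Cox7a2l* in iWAT, and in GM -0.0112 to 0.21 for *Atp5f1*, -0.0897 to 0.19 for *Atp5g1* and -0.00606 to 0.23 for *Cox4i2*. In hypothalamus they were -0.0853 to 0.10 for *Atp5g1*, -0.0126 to 0.0545 for *Atp5g2* and -0.0657 to 0.0545 for *Atp5s*. Differences in isoform share, LKO minus Ctrl in percentage points, also moved when 1 library was left out. They ranged from 3.00 to 10.8 for *Cox7a1* in iWAT (lowest without Ctrl 3), 0.53 to 1.25 for *Cox6a2* in liver (lowest without LKO 3), -0.0109 to 3.58 for *Atp5g1* in GM (lowest without LKO 3) and -0.16 to 0.19 for *Cox6a2* in iWAT. The causes were not tested. Without counts, the counting error of low genes such as *Cox6a2* in liver is unknown.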
